A study of Rattus norvegicus with 12 samples.

Results

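The genes described here are regulators of the cell division cycle outside the KEGG DNA replication map, in intestine of wild-type rats (Rattus norvegicus). They are the 118 genes, of 18749 in the deposited count table, whose pathway annotation holds the KEGG cell cycle map but not the KEGG DNA replication map. The rule used the annotation and no expression value. It leaves out 7 genes that stand in both maps, but it keeps the origin recognition complex, Cdc6, Cdc45, Cdc7 and Dbf4, which also serve DNA replication. Of the 118 members, 114 passed the filter on low counts and were tested, as were 15704 of all genes. The 4 members that did not pass were Ccnb3, Smc1b, Wee2 and LOC298795, with sums over 4 libraries of at most 13 counts in any group.

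Polyadenylated RNA was sequenced in 12 intestine libraries of a series on adaptation of the small intestine after removal of the colon. Its 3 groups hold 4 libraries each, in 1 batch: postSTC (postoperative), preSTC (preoperative) and preCTC, collected ahead of sham surgery. Replicate numbers are 1, 2, 5 and 7 in postSTC and 1, 5, 7 and 9 in preSTC and in preCTC. No library from after sham surgery was analysed here, so surgery and elapsed time cannot be told apart. The labels give neither age nor sex nor the bowel segment. Whether each replicate is its own animal is not stated either, and every p-value here is therefore relative to a spread among libraries that may be technical.

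A dividing cell commits in G1, when D-type cyclins with CDK4 or CDK6 inactivate the retinoblastoma family and free E2F factors to switch on genes of the next phase. Cyclin E and cyclin A with CDK2 start DNA synthesis, cyclin B with CDK1 starts mitosis, and the anaphase-promoting complex ends it by marking securin and cyclins for destruction. In the intestine these genes are used by the crypt cells that replace the epithelium, and also by dividing immune and stromal cells. Members were assigned to a phase and to a side, driving or restraining the cycle, from textbook roles.

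The libraries differed in tissue before any cell cycle gene is considered. Total counts were 30095656 to 39374682 per library. In postSTC7, 44.2% of counts came from a list of seminal vesicle and prostate genes, against at most 0.0251% in each other library. Within preSTC the share was 0.0201% in preSTC7 and at most 3.43e-05% in the other libraries. Levels are given as CPM, read counts relative to the library's total, corrected for composition with edgeR's TMM factors (trimmed mean of M values). Summed over 5 ileal genes they were 1981 to 5170 CPM in postSTC, 5696 to 6791 CPM in preSTC and 13.8 to 56.9 CPM in preCTC. For 8 colonic genes the sums were 214 to 635 CPM in postSTC, 45.2 to 71.7 CPM in preSTC and 1590 to 3587 CPM in preCTC, so the preSTC and preCTC libraries carried the transcripts of different bowel segments, and postSTC carried both. The part of this difference in the results that follow was not tested. Epithelial genes were present throughout, at 6879 to 14000 CPM for a list of 10 in postSTC, 13210 to 16620 CPM in preSTC and 9572 to 13870 CPM in preCTC.

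The first question was how cell cycle transcripts differed once the colon had been removed, in postSTC against preSTC. Among the genes that fell were Plk1, Ccnb1 and Cdk1 of mitotic entry, Bub1 of the spindle checkpoint, Cdc20 of anaphase and Ccna2 and Ccne1 of entry into and passage through S phase. Of 114 members tested, 34 (29.8%) fell and 4 (3.51%) rose, at a Benjamini-Hochberg adjusted p under 0.05 over all genes in edgeR's quasi-likelihood test. Over all genes tested 18% were called, 6.9% lower and 11.1% higher. The median log2 fold change was -0.18 over the members and 0.04 over all genes, and 86 of the 114 members had a negative value. The groups' libraries did not overlap for 42 members with lower and 6 with higher values in postSTC, where 10.2% and 11.9% of all genes did so, 22.1% in both directions together. Among the 57 members that drive the cycle 21 fell and 1 rose, and among the 51 that restrain it 10 fell and 3 rose. In bulk tissue, fewer cells of a type and less RNA per cell cannot be told apart.

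Same-numbered libraries of postSTC and preSTC deviated together, so the replicate number was also fitted as a block. With the block over all 12 libraries 25 members fell and 3 rose, and 28 of the 38 calls were kept. In a blocked fit of only the 8 libraries compared, which holds 3 complete pairs and 2 residual degrees of freedom, 0 of the 38 were called (edgeR adjusted p between 0.0694 and 0.298), while 37 members were lower and 4 higher at an unadjusted p under 0.05. Without the block, DESeq2 called 40 members lower and 5 higher, and limma voom 35 and 4. Without postSTC7, 37 fell and 5 rose, and of the 38 only Chek1, E2f3, Cdc7 and Rad21 lost their call, with adjusted p between 0.0552 and 0.0685.

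**Figure D1:**
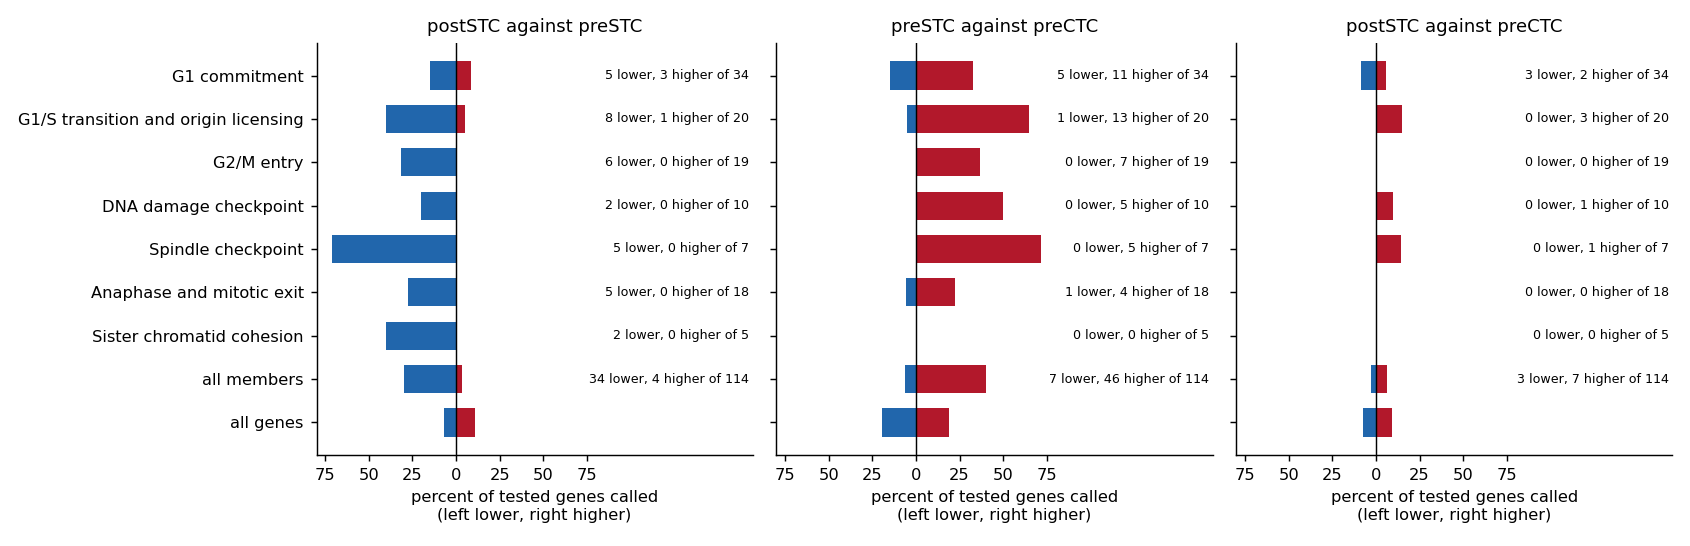
Share of tested genes called lower (left of 0) and higher (right of 0) at an edgeR adjusted p under 0.05, by phase of the cycle, for all members and for all genes tested, in the 3 comparisons; counts stand beside the bars. In postSTC against preSTC 34 of 114 members were lower, in preSTC against preCTC 46 were higher, and in postSTC against preCTC 7 were higher and 3 lower.

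Drivers of entry into mitosis were lower in postSTC. Of 8 tested genes that drive G2/M, 6 fell, with a median log2 fold change of -1.02 over the 8. Plk1, a kinase of mitotic entry and spindle assembly, had 28.5, 25.2, 23.2 and 18.0 CPM in the postSTC libraries 1, 2, 5 and 7, against 67.7, 58.2, 67.1 and 56.3 CPM in the preSTC libraries 1, 5, 7 and 9, the order used for every gene. Its postSTC libraries all lay below its preSTC libraries, and the log2 fold change was -1.39 ± 0.16 (SE, edgeR adjusted p = 0.000626, or 0.00566 with the block over 12 libraries). Ccnb1, the cyclin B subunit that activates CDK1, had 37.9, 40.5, 35.3 and 22.8 CPM in postSTC, against 93.7, 70.7, 84.6 and 75.9 CPM in preSTC. Cdk1, the mitotic kinase itself, had 33.95, 29.8, 28.2 and 19.2 CPM in postSTC, against 60.8, 47.6, 61.8 and 57.6 CPM in preSTC. The groups did not overlap for either gene, and postSTC7 was the lowest library for Plk1, Ccnb1 and Cdk1. With all libraries the log2 fold changes were -1.25 ± 0.18 for Ccnb1 and -1.03 ± 0.16 for Cdk1 (SE, edgeR adjusted p = 0.00175 and 0.00229). Without postSTC7 they were -1.29 for Plk1, -1.11 for Ccnb1 and -0.90 for Cdk1. Ccnb2, a second B cyclin, and the phosphatase genes Cdc25b and Cdc25c, which remove the inhibitory phosphates from CDKs, also fell. The call of Cdc25c was lost with the block over 12 libraries (edgeR adjusted p = 0.0578) and without preSTC1. Ccnh and Cdk7, which form the CDK-activating kinase and serve general transcription, had log2 fold changes of -0.05 ± 0.13 and -0.01 ± 0.15 and were not called. LOC100364016, a locus that the RefSeq gene table names as a Ccnb2 pseudogene, fell as well (log2 -0.95 ± 0.23, SE, edgeR adjusted p = 0.0155), but reads may be shared between it and Ccnb2, so both values are uncertain.

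**Figure D2:**
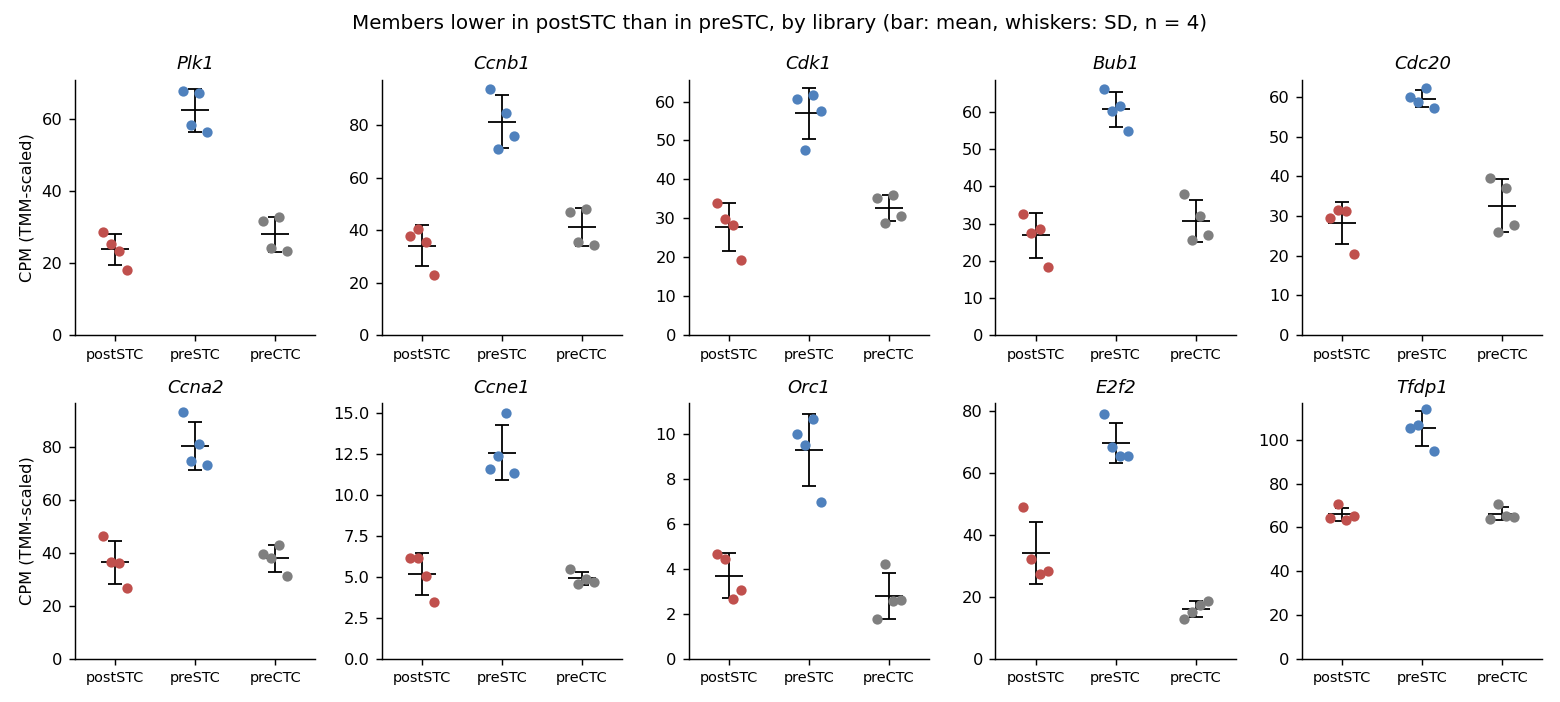
CPM of 10 members called lower in postSTC than in preSTC, for each library of postSTC, preSTC and preCTC; points are libraries, the bar is the mean and whiskers are the SD of 4. Every postSTC library lies below every preSTC library in all 10 panels, and preCTC lies near postSTC except for E2f2, where it is lower.

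The promoters of mitotic genes are known for a cell cycle genes homology region (CHR), read by MuvB complexes, and for CCAAT boxes, read by NF-Y. The 150 bases before the annotated start are printed for 8 genes that fell, to show where these letters lie in members of G2/M entry (Ccnb1, Ccnb2, Plk1, Cdk1), anaphase (Cdc20, Espl1), the retinoblastoma family (Rbl1) and the damage checkpoint (Chek1). Sequences are from RefSeq, assembly GRCr8, 5′ to 3′ on the strand of the gene. Capitals mark matches on either strand to TTTGAA or TTTAAA (CHR), CCAAT, and TTTCCCGC, TTTGGCGC or TTTCGCGC (E2F).
Ccnb1, chr2:33655226-33655375, minus strand: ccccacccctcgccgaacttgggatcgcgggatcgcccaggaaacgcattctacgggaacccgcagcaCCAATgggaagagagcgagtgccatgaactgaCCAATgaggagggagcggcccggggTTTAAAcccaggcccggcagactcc
Ccnb2, chr8:79981659-79981808, minus strand: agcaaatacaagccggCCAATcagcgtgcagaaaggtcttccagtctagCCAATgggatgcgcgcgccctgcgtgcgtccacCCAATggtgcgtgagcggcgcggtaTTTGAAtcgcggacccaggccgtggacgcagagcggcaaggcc
Plk1, chr1:186147508-186147657, plus strand: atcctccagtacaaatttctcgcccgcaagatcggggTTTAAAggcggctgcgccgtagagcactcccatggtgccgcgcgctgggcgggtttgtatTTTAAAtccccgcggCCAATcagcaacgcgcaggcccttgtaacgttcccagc
Cdk1, chr20:19265143-19265292, plus strand: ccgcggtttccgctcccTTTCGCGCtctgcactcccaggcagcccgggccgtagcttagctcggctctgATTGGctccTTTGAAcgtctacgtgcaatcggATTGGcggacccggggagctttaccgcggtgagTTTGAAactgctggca
Cdc20, chr5:137255800-137255949, minus strand: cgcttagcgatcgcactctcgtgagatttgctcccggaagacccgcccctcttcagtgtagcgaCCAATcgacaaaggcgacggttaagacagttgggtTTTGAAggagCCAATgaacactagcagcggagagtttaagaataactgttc
Espl1, chr7:135302566-135302715, plus strand: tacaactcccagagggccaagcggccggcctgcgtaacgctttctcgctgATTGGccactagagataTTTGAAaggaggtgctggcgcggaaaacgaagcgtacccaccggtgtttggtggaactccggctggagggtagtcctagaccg
Rbl1, chr3:166289377-166289526, minus strand: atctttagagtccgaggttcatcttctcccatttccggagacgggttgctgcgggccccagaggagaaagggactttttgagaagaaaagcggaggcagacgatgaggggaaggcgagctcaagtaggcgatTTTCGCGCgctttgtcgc
Chek1, chr8:44629844-44629993, minus strand: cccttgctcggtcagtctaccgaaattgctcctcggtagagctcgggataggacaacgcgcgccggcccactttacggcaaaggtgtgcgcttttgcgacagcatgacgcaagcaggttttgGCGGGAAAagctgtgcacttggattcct

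Of the 118 members, 91 matched a RefSeq window of 250 bases before to 50 after the start. A CHR match stood in 18 of 26 windows of members that fell (69.2%), in 10 of 60 of members that were tested and not called (16.7%) and in 20.1% of the windows of all tested genes. CHR and CCAAT matches stood together in 38.5, 10 and 8.02% of the same 3 sets. CCAAT alone separated them less, at 53.8, 50 and 37.6%. E2F matches stood in 15.4% of windows of members that fell and 15% of those not called, against 3.1% of all tested genes. Of the 6 G2/M drivers that fell, 5 held both a CHR and a CCAAT match. Members that rose had 2 windows, of which 2 held a CHR match and 0 a CCAAT match, so CHR matches were not confined to members that fell. In the windows printed above, Rbl1 and Chek1 hold an E2F match and neither a CHR nor a CCAAT match. These are matches of letters, with no test, and binding was not measured. Among the matches in members, 1 pair overlapped.

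**Figure D3:**
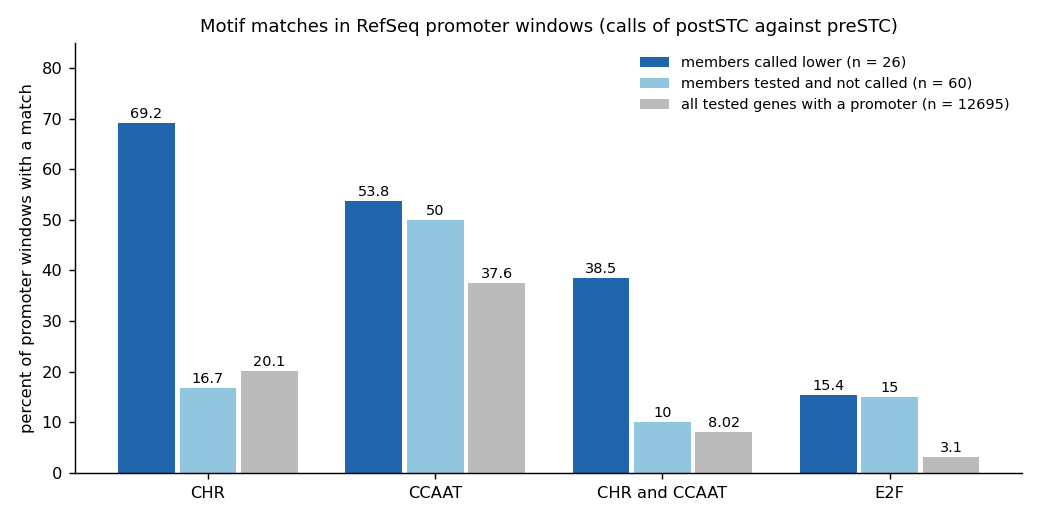
Percent of RefSeq promoter windows with a match on either strand to the CHR, CCAAT, both, or E2F letters, for members called lower in postSTC than in preSTC (26 windows), members tested and not called (60) and all tested genes with a window (12695). CHR matches stand in 69.2% of windows of members that fell and 16.7% of those not called. Members called higher have 2 windows, 2 of them with a CHR match, and are not drawn.

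The restraints on G2/M are Wee1 and Pkmyt1, the kinases that hold CDK1 inactive, the 14-3-3 proteins that sequester CDC25, and the stress-induced Gadd45 genes. Of 11 tested, edgeR called 0, although at an unadjusted p under 0.05 there were 2 higher and 1 lower. DESeq2 and limma voom each called 1 lower. Without postSTC7 edgeR called Pkmyt1 lower and Ywhab, a 14-3-3 gene, higher (log2 -0.83 and 0.29, adjusted p = 0.0247 and 0.0457). Their median log2 fold change was 0.04, beside -1.02 for the drivers of the same step. Wee1 had 26.8, 24.9, 24.2 and 43.0 CPM in postSTC, against 16.5, 24.1, 21.6 and 19.8 CPM in preSTC. Its postSTC libraries all lay above its preSTC libraries, yet the difference of 0.54 ± 0.22 (log2, SE) was not called (edgeR adjusted p = 0.112) and was 0.30 without postSTC7. Pkmyt1 had -0.67 ± 0.22 (log2, SE, edgeR adjusted p = 0.0552).

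The spindle checkpoint, which delays anaphase until chromosomes are attached, fell in 5 of 7 genes, with a median log2 fold change of -0.93. Bub1, a checkpoint kinase at the kinetochore, had 32.7, 27.6, 28.6 and 18.4 CPM in postSTC, against 66.3, 60.2, 61.6 and 54.9 CPM in preSTC. For Mad2l1, whose protein holds CDC20 back, the values were 31.4, 23.4, 25.03 and 19.4 CPM in postSTC, against 49.0, 46.8, 44.1 and 49.5 CPM in preSTC. Both genes separated the groups completely, with log2 fold changes of -1.18 ± 0.17 and -0.93 ± 0.13 (SE, edgeR adjusted p = 0.00182 for Bub1 and 0.00151 for Mad2l1). Bub1b and Ttk fell by about as much (log2 -1.15 ± 0.22 and -0.96 ± 0.22, SE), and Bub3, whose protein also has a role outside mitosis, by 0.40 ± 0.11, a call lost without preSTC1, preSTC7 or preSTC9. In postSTC7 Ttk stood at 7.26 CPM, far below the 14.9 to 15.3 CPM of the other postSTC libraries, and with the block its adjusted p was above the threshold. Mad1l1 had -0.56 ± 0.18 (log2, SE, edgeR adjusted p = 0.0508), and was called lower without postSTC7, at -0.65 (0.0332). Mad2l2, better known for translesion synthesis, had -0.00 ± 0.16.

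In anaphase and mitotic exit 5 of 18 members fell. Cdc20, the mitotic activator of the anaphase-promoting complex, had 29.6, 31.7, 31.4 and 20.5 CPM in postSTC, against 60.0, 58.9, 62.3 and 57.3 CPM in preSTC. Pttg1, the gene of securin, which holds separase inactive, had 12.7, 7.54, 10.4 and 8.29 CPM in postSTC, against 21.1, 18.2, 20.9 and 20.7 CPM in preSTC. Neither gene's groups overlapped, and the log2 fold changes were -1.07 ± 0.16 and -1.05 ± 0.22 (SE, edgeR adjusted p = 0.0021 for Cdc20 and 0.00829 for Pttg1). Espl1, the gene of separase, the protease that cuts cohesin, fell by 1.16 ± 0.20, and Fzr1, the second activator of the complex, by 0.57 ± 0.13 on the log2 scale (SE). The phosphatase genes Cdc14a and Cdc14b were not called, at -0.40 ± 0.19 and 0.52 ± 0.17 (log2, SE, edgeR adjusted p = 0.164 and 0.0539), although every postSTC library lay above every preSTC library for Cdc14b. Of the 12 tested subunits of the complex itself, 1 was called, Anapc7, which fell by 0.34 ± 0.10 and lost its call with the block and in 5 of 12 fits that left out 1 library each (postSTC2, postSTC5, preSTC1, preSTC5 or preSTC7). The 11 others lay between -0.18 and 0.06. Without postSTC7, Anapc1 was called lower at -0.30 (edgeR adjusted p = 0.0336) and Cdc16 stood at -0.30 (0.0604). In cohesin, the ring that holds sister chromatids and also shapes chromatin in resting cells, Rad21 and Smc3 fell by 0.34 ± 0.10 and 0.26 ± 0.08 (log2, SE). Both calls were lost with the block, and in 7 and 9 of the 12 fits without 1 library.

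Entry into DNA synthesis was divided. Of 20 members of the G1/S step and of origin licensing 8 fell and 1 rose, with a median log2 fold change of -0.43. Ccna2, cyclin A of S phase and G2, had 46.4, 36.4, 36.2 and 26.7 CPM in postSTC, against 93.1, 74.7, 80.95 and 73.0 CPM in preSTC. Ccne1, cyclin E of the G1/S step, had 6.14, 6.16, 5.06 and 3.45 CPM in postSTC, against 11.6, 12.4, 15.02 and 11.4 CPM in preSTC. Orc1, the subunit of the origin recognition complex that is itself regulated through the cycle, had 4.66, 4.41, 2.66 and 3.05 CPM in postSTC, against 9.98, 9.50, 10.6 and 6.98 CPM in preSTC. All 3 genes separated the groups, with log2 fold changes of -1.14 ± 0.16, -1.27 ± 0.19 and -1.33 ± 0.28 (SE, edgeR adjusted p = 0.00146, 0.00214 and 0.00967). Dbf4, the activating subunit of the kinase CDC7 that fires origins, fell by 0.94 ± 0.11, and Cdk2, partner of cyclins E and A, by 0.57 ± 0.10 (log2, SE). Within the origin recognition complex the subunits did not move together. Orc4 rose, with 44.7, 36.2, 38.8 and 53.9 CPM in postSTC, against 31.3, 29.5, 27.6 and 33.9 CPM in preSTC (log2 0.51 ± 0.13, SE, edgeR adjusted p = 0.0213), and Orc2, Orc3, Orc5 and Orc6 were not called. The call of Orc4 was lost without preSTC1, preSTC5 or preSTC7 (adjusted p = 0.0518, 0.0559 and 0.0673). Among the ubiquitin ligase genes that clear CDK inhibitors, Skp2, Skp1, Cul1 and Rbx1 were not called.

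**Figure D4:**
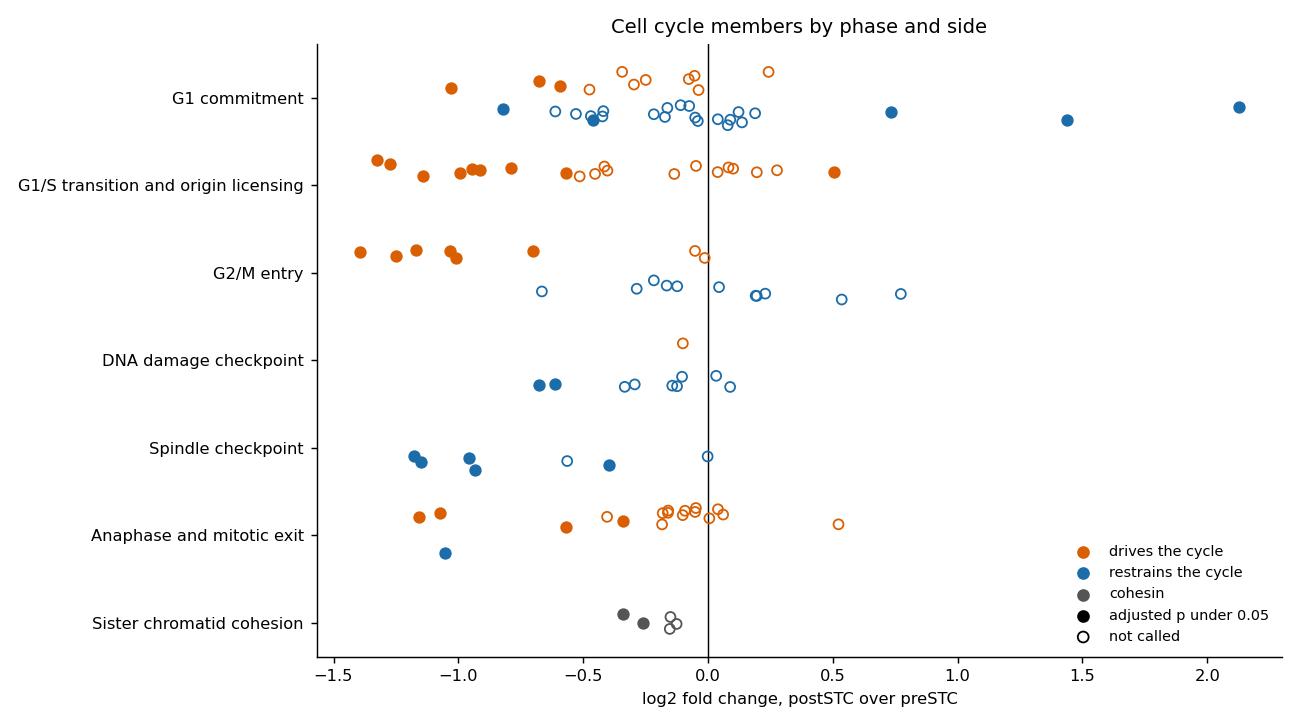
Log2 fold change of postSTC over preSTC for each tested member that has a phase, by phase; orange points drive the cycle, blue points restrain it, grey points are cohesin, and filled points passed an edgeR adjusted p under 0.05. The filled points left of -0.9 include 5 of the 6 G2/M drivers that fell, and the 3 filled restraints right of 0 are Tgfb2, Cdkn1c and Tgfb3.

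Commitment in G1 split by gene. Of 11 drivers 3 fell, E2f2, Tfdp1 and E2f3. E2f2, an activating E2F factor, had 48.9, 32.1, 27.3 and 28.2 CPM in postSTC, against 79.0, 68.3, 65.6 and 65.4 CPM in preSTC, and Tfdp1, the shared partner of E2F factors, had 64.5, 70.6, 63.6 and 65.3 CPM in postSTC, against 105.5, 107.0, 114.1 and 94.9 CPM in preSTC. The groups did not overlap in either, with log2 fold changes of -1.03 ± 0.19 and -0.68 ± 0.08 (SE, edgeR adjusted p = 0.00424 for E2f2 and 0.000633 for Tfdp1). E2f3 fell by 0.59 ± 0.16, a call lost with the block over 12 libraries (edgeR adjusted p = 0.0827) and without postSTC2, postSTC5, postSTC7, preSTC1 or preSTC7. E2f1 had -0.34 ± 0.16 (log2, SE, edgeR adjusted p = 0.156). Of the 3 D cyclin genes and the genes of their kinases, Cdk4 and Cdk6, edgeR called 0, with 2 lower at an unadjusted p under 0.05, DESeq2 called 1 lower and limma voom 0. Ccnd1 had a log2 fold change of -0.08 ± 0.16 and Ccnd2 of -0.05 ± 0.20 (SE). Cdk6 depended on 1 library, with 44.6, 49.2, 39.8 and 137.5 CPM in postSTC, against 60.1, 57.6, 54.9 and 56.2 CPM in preSTC. Its log2 fold change was 0.24 ± 0.33 with all libraries and -0.37 without postSTC7 (edgeR adjusted p = 0.64 and 0.0392). Cdk4 was also called lower without postSTC7, at -0.28 (0.0374), against -0.25 ± 0.08 with all libraries (SE, 0.0508). Myc, a growth factor-responsive regulator upstream of the D cyclins, had -0.47 ± 0.20 (SE, edgeR adjusted p = 0.125).

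Among 23 restraints of G1, 3 rose and 2 fell. Cdkn1c, the gene of the CDK inhibitor p57, had 13.1, 15.8, 20.8 and 5.33 CPM in postSTC, against 4.28, 4.25, 7.10 and 4.68 CPM in preSTC. Its postSTC7 value lay within the preSTC range and the other 3 postSTC libraries above it, and the log2 fold change was 1.44 ± 0.34 (SE, edgeR adjusted p = 0.014, or 0.0937 with the block) and 1.69 without postSTC7. Tgfb3, the gene of a TGF beta ligand that arrests epithelial cells in G1, had 19.1, 35.6, 34.8 and 91.0 CPM in postSTC, against 7.74, 11.0, 12.9 and 9.67 CPM in preSTC. Here postSTC7 was the highest, the groups did not overlap, and the log2 fold change was 2.13 ± 0.38, or 1.52 without postSTC7 (SE, edgeR adjusted p = 0.0041 and 0.0013). Tgfb2, a second ligand, rose by 0.73 ± 0.20, a call lost without postSTC5 (adjusted p = 0.0541) or without any 1 of the preSTC libraries (0.0554 to 0.0791). Of the 7 CDK inhibitor genes only Cdkn1c was called. Cdkn1a, the gene of p21, had 123.5, 111.6, 92.7 and 69.5 CPM in postSTC, against 165.2, 117.9, 139.5 and 127.5 CPM in preSTC, groups that overlapped (log2 -0.47 ± 0.16, SE, edgeR adjusted p = 0.0674). The receptor-regulated Smad2 and Smad3, Smad4 and Tgfb1 were not called. The restraints that fell were Rbl1, the gene of the pocket protein p107, by 0.82 ± 0.12, and the repressive factor E2f4 by 0.46 ± 0.10 (log2, SE), while Rb1 and Rbl2 had -0.22 ± 0.12 and 0.04 ± 0.11.

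Stromal transcripts were read beside the members that rose. The summed level of 8 fibroblast genes was 2369 to 4003 CPM in postSTC and 2030 to 2643 CPM in preSTC, with 4 of the 8 higher in edgeR. That of 10 smooth muscle genes was 5820 to 8736 CPM in postSTC and 3227 to 4967 CPM in preSTC, with 5 of 10 higher. Within postSTC, postSTC7 had the lowest fibroblast sum (2369 CPM) and the highest smooth muscle sum (8736 CPM), with Cdkn1c lowest and Tgfb3 highest. In that library 44.2% of counts came from seminal vesicle and prostate genes, and which tissue gave its stromal transcripts was not tested. The other postSTC libraries had 2532 to 4003 CPM for fibroblast and 5820 to 7028 CPM for smooth muscle genes. In preCTC the sums were 5303 to 8119 and 10370 to 17400 CPM. There Cdkn1c had 4.395 to 5.638, Tgfb3 18.7 to 21.9 and Tgfb2 10.8 to 12.6 CPM. The part of fibroblasts and smooth muscle in the values of Cdkn1c, Tgfb2 and Tgfb3 was not tested. Beside the members that fell, edgeR called 1 of 10 epithelial genes, Vil1, lower, with 5 lower at an unadjusted p under 0.05. Of the 10, 9 were negative (median log2 fold change of the list -0.43). Of 8 crypt stem cell genes edgeR called 0, with 0 at an unadjusted p under 0.05, DESeq2 0 and limma voom 1. Their median log2 fold change was 0.05, with 5 positive and 3 negative. Their sum was 383 to 746 CPM in postSTC and 808 to 1377 CPM in preSTC. Most of it was Olfm4, which was not called (log2 -1.32 ± 0.70, SE, edgeR adjusted p = 0.209). Germinal centres hold dividing B cells, and 12 B cell and germinal centre genes summed to 57.6 to 214 CPM in postSTC and 43.6 to 762 CPM in preSTC. Their median log2 fold change was -1.63, with 10 of 12 negative; edgeR called 0, with 2 lower at an unadjusted p under 0.05, DESeq2 called 1 lower and limma voom 0. The sum of 7 T cell genes was 108 to 279 CPM in postSTC and 190 to 279 CPM in preSTC, with a median of -0.75 and 6 of 7 negative; edgeR called 0, with 1 lower at an unadjusted p under 0.05, DESeq2 called 1 lower and limma voom 0. The part of epithelial and immune cells in the members that fell was not tested.

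**Figure D5:**
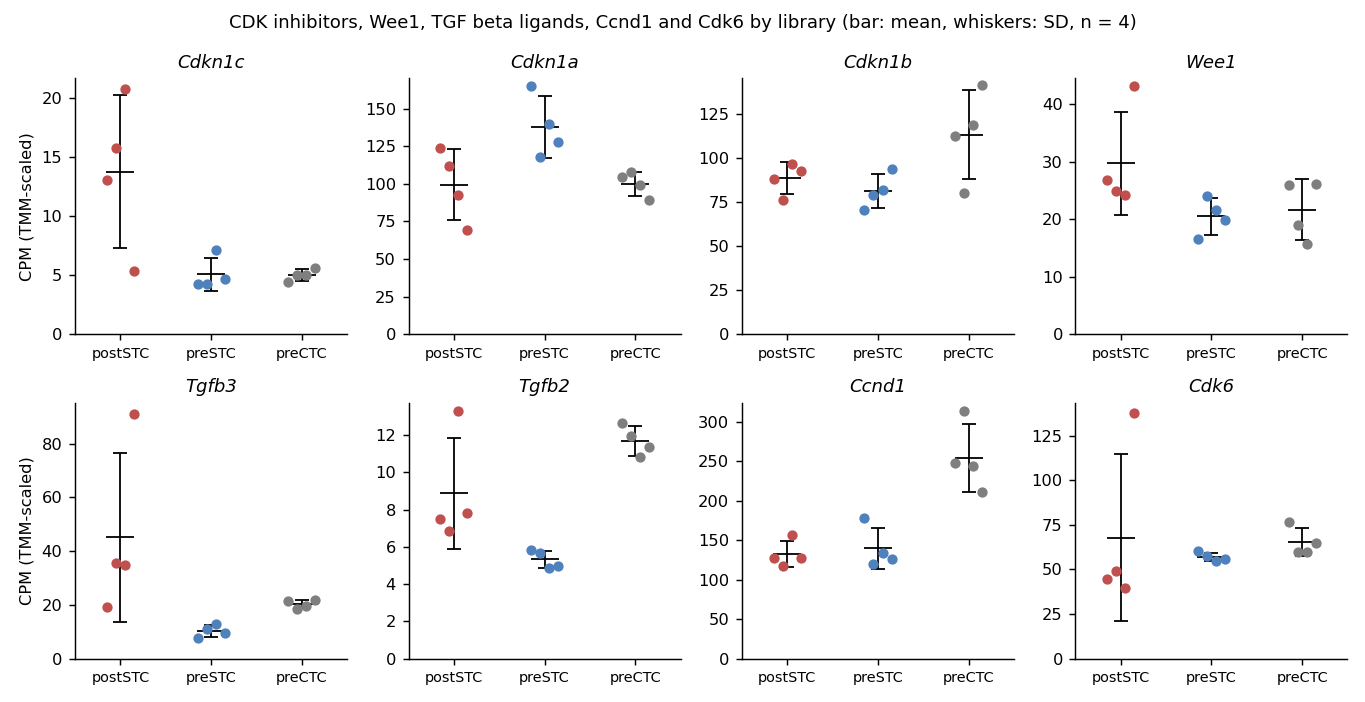
CPM of Cdkn1c, Cdkn1a, Cdkn1b, Wee1, Tgfb3, Tgfb2, Ccnd1 and Cdk6 for each library of postSTC, preSTC and preCTC; points are libraries, the bar is the mean and whiskers are the SD of 4. Cdkn1c is at 13.1 to 20.8 CPM in 3 postSTC libraries and 5.33 in postSTC7, and Cdk6 is at 137.5 CPM in postSTC7 alone.

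In the checkpoint for damaged DNA, 2 of 10 members fell. These were the effector kinase genes Chek1, by 0.61 ± 0.18, and Chek2, by 0.68 ± 0.16 (log2, SE, edgeR adjusted p = 0.034 and 0.0129), and both calls were lost with the block. That of Chek1 was also lost without postSTC5, postSTC7 or any 1 of the preSTC libraries. Chek1 had 11.2, 11.4, 9.58 and 8.29 CPM in postSTC, against 14.3, 14.9, 16.2 and 16.6 CPM in preSTC, with no overlap. The upstream kinases Atm, Atr and Prkdc had log2 fold changes of 0.09 ± 0.24, -0.33 ± 0.13 and -0.10 ± 0.11 (SE). With all libraries these 3 genes did not pass the test. Without postSTC7, Atr was called lower at -0.43 (log2, edgeR adjusted p = 0.0408).

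Other genes of the cycle were read beside the members. Of 30 such genes, among them the proliferation marker Mki67 and the transcription factors Foxm1 and Mybl2, 24 fell in postSTC against preSTC, with a median log2 fold change of -0.98. Mki67 averaged 133 CPM in postSTC and 288.5 CPM in preSTC (log2 -1.12, edgeR adjusted p = 0.000935). Mcm2 to Mcm7 and Pcna, the 7 genes in both KEGG maps, all fell, with a median of -0.92. In the blocked fit of 8 libraries 0 of the 30 and 1 of the 7 were called (edgeR), against 24 and 7 with the block over 12 libraries. The lists were chosen with earlier results of these data known, so they are no independent evidence of a direction.

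The comparison of preSTC against preCTC set the baselines of both operations side by side, and it shares the preSTC libraries with the comparison above. Of 114 members 46 were higher (40.4%) and 7 lower (6.14%) in preSTC, where 38.7% of all genes were called, 19.1% higher and 19.6% lower. The median log2 fold change was 0.22 over the members and -0.02 over all genes. The members called higher included 13 of 20 of the G1/S step and origin licensing, 5 of 8 G2/M drivers, 5 of 7 of the spindle checkpoint and 5 of 10 of the damage checkpoint, beside 2 of 11 G2/M restraints. The libraries did not overlap for 51 members with higher and 10 with lower values in preSTC, and for 45% of all genes, 22.5% in each direction. E2f2 had the lowest adjusted p of the members, with 79.0, 68.3, 65.6 and 65.4 CPM in preSTC, against 12.8, 15.2, 17.5 and 18.7 CPM in preCTC. All of its preSTC libraries lay above all preCTC libraries, and the log2 fold change was 2.12 ± 0.19 (SE, edgeR adjusted p = 1.13e-05). Plk1 had 31.6, 24.2, 32.8 and 23.4 CPM in preCTC, and was higher in preSTC by 1.16 ± 0.16, and Orc1 by 1.74 ± 0.29 (log2, SE, edgeR adjusted p = 0.000187 and 0.000678).

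The 7 members that were lower in preSTC than in preCTC were Ccnd1, Cdkn1b, Hdac1, Hdac1l, Tgfb2, Orc4 and Anapc2. Ccnd1, cyclin D1, a Wnt-responsive gene in gut epithelium, had 177.9, 120.0, 134.4 and 126.6 CPM in preSTC, against 247.2, 314.0, 243.9 and 210.6 CPM in preCTC. The groups did not overlap, and the log2 fold change was -0.86 ± 0.16 (SE, edgeR adjusted p = 0.0012). Cdkn1b, the gene of the CDK inhibitor p27, was lower by 0.48 ± 0.16 in preSTC, and Cdkn1a was higher by 0.46 ± 0.16 (log2, SE, edgeR adjusted p = 0.0298 and 0.0446). Of the 12 fits without 1 library, 6 lost the call of Cdkn1b and 9 that of Cdkn1a, each by leaving out preSTC1, preSTC7, preCTC1, preCTC7 or preCTC9, among others, and 5 lost that of Anapc2. Hdac1 and Hdac1l, which is annotated as like Hdac1, may share reads, so their separate values are uncertain. Smooth muscle genes, all 10 lower in preSTC, and fibroblast genes, 7 of 8 lower, differed in this comparison too. T cell genes were higher in preSTC, with 5 of 7 called and a median log2 fold change of 2.23, and of 12 B cell and germinal centre genes 1 was called higher, with all 12 positive and a median of 1.58. The part of these cells in the members that were higher or lower was not tested.

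Between postSTC and preCTC few members differed. Of 114, 7 were higher (6.14%) and 3 lower in postSTC, where 9.27% of all genes were higher and 7.37% lower. The shares thus lay below those of all genes, of which 16.6% were called. The libraries did not overlap for 7 tested members with higher and 4 with lower values in postSTC, where 9.54% and 8.6% of all genes did so, 18.1% together. The G2/M genes gave 0 calls of 19 in edgeR, with 1 lower at an unadjusted p under 0.05, and 0 in DESeq2 and in limma voom. Plk1 had a log2 fold change of -0.24 ± 0.16 and Ccnb1 of -0.27 ± 0.18 (SE, edgeR adjusted p = 0.338 and 0.346). The members that were higher in postSTC were E2f2, Cdc25a, Cul1, Orc2, Mad2l2, Crebbp and Cdkn1c. The call of Orc2 was lost in 10 of the 12 fits without 1 library (kept without postSTC1 or postSTC2), with limma voom and with no filter on low counts. That of Cul1 was lost in 6 (without postSTC1, postSTC2, preCTC1, preCTC7, preCTC9 or preSTC9). E2f2 stood between the baselines, with postSTC above preCTC by 1.09 ± 0.19 (log2, SE, edgeR adjusted p = 0.00219) and no overlap. Cdc25a, the phosphatase gene of the G1/S step, had 66.9, 54.8, 43.1 and 72.3 CPM in postSTC, against 41.1, 41.5, 34.9 and 35.0 CPM in preCTC (log2 0.64 ± 0.15, SE, edgeR adjusted p = 0.0143). The members that were lower in postSTC were Ccnd1, Hdac1 and Hdac1l. For Ccnd1 the values were 127.5, 117.7, 156.7 and 127.8 CPM in postSTC, all below those of preCTC, a log2 difference of -0.94 ± 0.16 (SE, edgeR adjusted p = 0.00189).

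Levels between genes were compared per length, as the deposited FPKM divided by the TMM factor of each library. In postSTC the order among cyclins was Ccnd2 at 48.5 ± 5.51, Ccnd1 at 35.3 ± 4.50, Ccnd3 at 28.5 ± 2.38, Ccna2 at 20.2 ± 4.47, Ccnb2 at 16.5 ± 4.44 and Ccnb1 at 10.4 ± 2.40 FPKM (SD, n = 4). Ccnd1 and Ccnd3, Ccna2 and Ccnb2, and Ccnb2 and Ccnb1 differed by less than the sum of their SDs in postSTC. In preSTC the order was Ccnd2 at 50.4 ± 5.98, Ccna2 at 44.6 ± 5.04, Ccnd1 at 37.3 ± 6.96, Ccnd3 at 35.0 ± 5.47, Ccnb2 at 33.3 ± 4.35 and Ccnb1 at 24.8 ± 3.09 FPKM. Neighbours in that order from Ccnd2 down to Ccnb2 differed by less than the sum of their SDs. The E cyclins were lower, Ccne1 at 2.54 ± 0.63 in postSTC and 6.16 ± 0.82 FPKM in preSTC. Among CDK inhibitors Cdkn1a and Cdkn1b were the highest, at 41.1 ± 9.78 and 40.2 ± 4.08 FPKM in postSTC, and Cdkn1c, the one that rose, stood at 6.69 ± 3.15 FPKM in postSTC and 2.47 ± 0.66 FPKM in preSTC.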

How the data were processed

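The deposited table gives, per gene, whole-number counts and FPKM for 12 libraries, made by the authors. Per the labels' protocols, extraction used TRIzol and the library kit was VAHTS Universal V6. fastp, HISAT2, HTSeq and the build mRatBN7.2 are named, per the submitters' processing notes, and their settings and roles were not given in the sources used here. The deposited FPKM followed from the counts within a relative deviation of 9e-16, with no scaling for composition.

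Counts were analysed in R 4.3.3 with edgeR 4.0.16. filterByExpr kept 15704 genes (83.8%), libraries were scaled by TMM, and a quasi-likelihood fit with 1 term, the group, took all 12 libraries (common biological coefficient of variation 0.322). A gene was called at a Benjamini-Hochberg adjusted p under 0.05 over all tested genes. SE is the absolute log2 fold change over the square root of F. DESeq2 1.42.0, limma 3.58.1 and other settings were alternatives. The code was tested on simulated counts. The smallest chi-square per gene between replicates was 32.0, so no library was a duplicate. SEs and p-values rest on the spread between libraries.

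Same-numbered libraries of postSTC and preSTC deviated together: deviations from group means correlated by 0.236, 0.158 and 0.168 for numbers 1, 5 and 7. Seminal vesicle and prostate genes, highest within their groups in postSTC7 and preSTC7, were not left out of these correlations. Members, phases, sides and lists were chosen with earlier results of these data known. Hdac1l, LOC298795 and LOC100364016 were assigned once the table was seen. Named genes were core cyclins, CDKs, inhibitors, pocket proteins and mitotic regulators, the 3 called members of lowest adjusted p per phase and direction, and called members that went against their phase. The text also names further members to complete families. Promoters came from RefSeq GRCr8, whose coordinates do not apply to the counts' build, matched by gene identifier, using the first window of each gene.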

Additional observations from a re-analysis of the deposited data

Results flagged for a closer look

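In 174 groups of 4 libraries of the named members, 10 (5.75%) held 1 library far from the other 3, and chance flags about 1 in 20 groups. Of these, 3 were postSTC7, the library with seminal transcripts: Cdk6 at 137.5 CPM against 39.8 to 49.2 CPM in the other postSTC libraries, Wee1 at 43.0 against 24.2 to 26.8 CPM, and Ttk at 7.26 against 14.9 to 15.3 CPM. Tgfb2 stood at 13.3 CPM in postSTC5, against 6.88 to 7.79 CPM in the other postSTC libraries. In preSTC, Cdkn1c stood at 7.10 CPM in preSTC7 against 4.25 to 4.68 CPM, Pttg1 at 18.2 CPM in preSTC5 against 20.7 to 21.1 CPM, and Cdc25a at 91.2 CPM in preSTC1 against 72.9 to 75.7 CPM in the other libraries. In preCTC, Cdkn2a stood at 0.262 CPM in preCTC1 against 0.0507 to 0.0723 CPM, Cdkn2d at 11.4 CPM in preCTC9 against 7.68 to 7.79 CPM, and Atr at 13.5 CPM in preCTC9 against 12.6 to 12.7 CPM. The Cdkn2a values rest on few reads, near the floor of detection.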

How the results depend on the processing

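In postSTC against preSTC the 34 lower members numbered 33 to 40 with DESeq2, limma voom, other factors, no filter on low counts, or FPKM divided by the TMM factor (chosen after the data were seen), 31 with only the 8 libraries compared and 25 with the replicate block over 12 libraries. With the block over 8 libraries 0 were lower and 0 higher, and with log2(FPKM + 0.1), which has no scaling for composition, 16 were lower and 1 higher. Higher members numbered 2 with the 8 libraries alone. On the FPKM scale the median of all genes was -0.09, -0.16 and -0.24 in the 3 comparisons, against 0.04, -0.02 and 0.04, and 70.4, 29.9 and 31.4% of all calls were higher, against 61.7, 49.3 and 55.7%. The calls over all genes numbered 2833 in postSTC against preSTC, and 1746 and 66 with the replicate block over 12 and 8 libraries, and 653 on the FPKM scale. In preSTC against preCTC they were 6077 and, on the FPKM scale, 3753, with 46 and 11 members higher. In postSTC against preCTC they were 2612, and 1399 and 151 with the block, 1455 with the 8 libraries alone and 1569 on the FPKM scale. Members higher there were 7, and 1 and 0 with the block, 4 with the 8 libraries alone and 0 on the FPKM scale; members lower were 3, and 0 with the block over 8 libraries. In preSTC against preCTC same-numbered libraries correlated by 0.222, -0.0278, 0.171 and 0.145 for numbers 1, 5, 7 and 9. In postSTC against preCTC the values were 0.22, -0.0159 and 0.0544 for numbers 1, 5 and 7. In both, every number but 5 correlated best with its own number. With the block in preSTC against preCTC, 40 members were higher and 8 lower over 12 libraries, and 43 and 8 over 8 libraries.

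Leaving out 1 library at a time gave 1609 to 3684 called genes, 2 to 5 higher and 26 to 37 lower members in postSTC against preSTC, with 1609, 1855 and 1681 genes and 2 higher members without preSTC1, preSTC5 or preSTC7. The ranges were 5037 to 7258 genes, 34 to 51 higher and 5 to 8 lower members in preSTC against preCTC, and 1780 to 3123, 5 to 9 and 3 to 6 in postSTC against preCTC, where 5, 6 and 6 were lower without postSTC1, postSTC7 or preCTC5. Cdk6 ranged over single libraries left out between -0.37 and 0.43 in postSTC against preSTC and between -0.55 and 0.24 against preCTC, with both lowest values, and the only negative ones, without postSTC7 (edgeR adjusted p = 0.0392 and 0.00525). Cul1 in postSTC against preCTC turned to -0.0129 on the FPKM scale. Apart from the FPKM scaling, the cause of these changes was not tested.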
